A study of Macaca mulatta with 7 samples.

Results

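The NF-kB genes NFKB1, NFKB2, RELB, NFKBIA, TNFAIP3 and BIRC3, the adhesion molecule gene ICAM1 and the mitochondrial superoxide dismutase gene SOD2 were followed through single-nucleus RNA-seq of rhesus monkey spinal cord. These 8 genes, of 28966 gene names in the count tables, were taken by symbol from a list drawn up with earlier results of these data known. The list was chosen by the levels of these genes per class and library, the same values as are given here, so these are a description and support nothing further. In uninjured cord, cervical, thoracic and lumbar segments at an age of 5 years, without treatment, gave 1 library each. By the study's account 1 animal was sequenced per group, so the 3 intact libraries are taken to share an animal, and the intact range below is that of segments and not of animals. After a complete thoracic transection, the spared lumbar cord far below the lesion gave 1 library each at 7 days (7 dpi, animal 7 years old), 14 days (14 dpi, 7 years old), 30 days (30 dpi, 6 years old) and 6 months (6 mpi, 6 years old). All animals were adult females, and no injured library came from the lesion or its border. Because every group is a single library, the injury, the time after it, the animal, its age and the library cannot be told apart, and no test between groups was possible.

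NF-kB is a family of dimeric transcription factors that inhibitor proteins hold in the cytoplasm until a cytokine or a microbial product activates the IkB kinases. NFKB1 encodes the precursor of p50 and belongs to the canonical arm, while NFKB2, which encodes the precursor of p52, and RELB, its partner, form the non-canonical arm. NFKBIA encodes IkB-alpha, and TNFAIP3 encodes A20, a ubiquitin-editing enzyme that dampens the upstream signal. Both are themselves induced by NF-kB, as are BIRC3, an inhibitor of apoptosis that also acts on receptor complexes, ICAM1, which binds leukocyte integrins, and SOD2, which converts superoxide in the mitochondrial matrix. In the spinal cord the pathway is best known for inflammatory responses of microglia and vessels, and several of its targets are also expressed by neurons and astrocytes.

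The 7 libraries held 69332 barcodes and 777183139 unique molecular identifiers (UMIs), from 45079131 at 6 mpi to 150987900 in the intact lumbar cord. After filtering, 63726 nuclei (91.9%) were kept, with a median of 3191 to 7356 UMIs. Clusters were named from fixed markers, and the named class had the highest level of at least 5 of its detected markers in each of the 7 classes. Microglia/macrophage-like nuclei numbered 1667, 2557 and 2105 in the libraries of the intact cervical, thoracic and lumbar cord, and 3513, 4637, 3869 and 2319 at 7, 14 and 30 dpi and 6 mpi. Pairs of libraries shared 0.132 to 0.318% of their barcodes. A level is given below as CPM, the UMIs of a gene per 1000000 UMIs of that class in that library, and its 95% interval is an exact Poisson interval that covers counting error only. Ratios are log2((CPM + 1)/(CPM + 1)) against the intact lumbar library, which all comparisons share, and a gene was called at 2-fold or more if its mean level over the 7 libraries reached 10 CPM.

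In microglia/macrophage-like nuclei the non-canonical subunit RELB and the target ICAM1 stood above the range of the 3 intact libraries at all 4 times after injury. The inhibitor TNFAIP3 stood above that range at 7 dpi, 14 dpi and 6 mpi, and SOD2 at 30 dpi and 6 mpi. Of the 8 genes, 6 passed the filter on low levels there, and NFKB2 and BIRC3 did not. ICAM1 passed through its level in the injured libraries alone, so its call follows in part from the filter. At 7 dpi, RELB, TNFAIP3 and ICAM1 were at least 2-fold higher than in the intact lumbar library, where 6.77% of the 8533 genes tested were. At 14 dpi this held for RELB and ICAM1 against 5.09% of genes, at 30 dpi for RELB, ICAM1 and SOD2 against 7.07%, and at 6 mpi for TNFAIP3, ICAM1 and SOD2 against 10.4%. Of the 6, 0 were 2-fold lower at any of the 4 times, where 4.49, 3.29, 4.71 and 4.41% of genes were. Between the intact segments, 0 of the 6 differed 2-fold from lumbar in either direction, against 1.13% of genes higher and 0.293% lower in cervical and 0.586 and 0.574% in thoracic cord. Standing above the intact range at a single time was common, at 43.6, 30.9, 35.2 and 52.2% of genes in order of time.

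**Figure D1:**
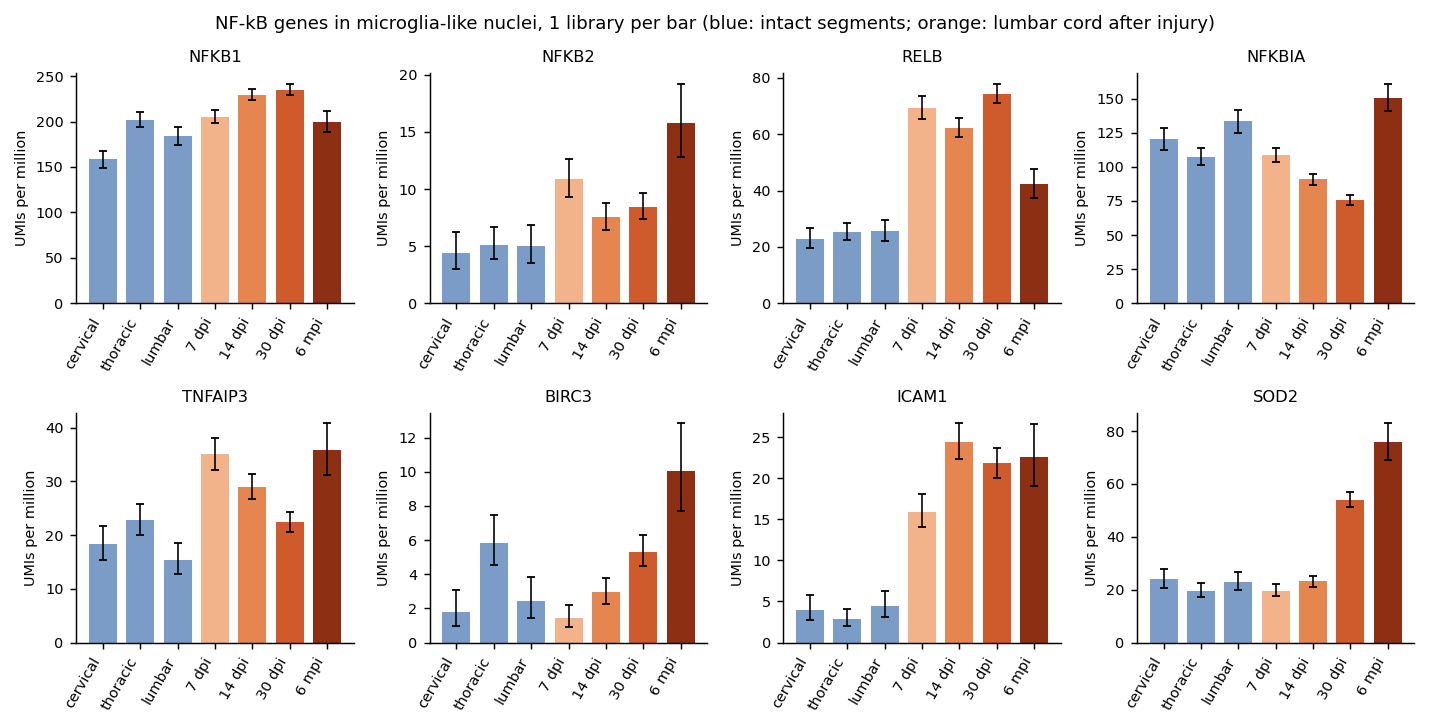
Level of each of the 8 genes in microglia/macrophage-like nuclei (CPM, each panel on its own linear axis from 0), with 1 bar per intact (blue) or injured (orange to brown) library and exact 95% Poisson intervals as whiskers. ICAM1 lies at or below 4.46 CPM in the intact libraries and at or above 15.9 CPM in the injured ones, whereas SOD2 leaves the intact range at 30 dpi (54.0 CPM) and 6 mpi (75.7 CPM).

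Among the subunits, NFKB1 (ENSMMUG00000003736, chr5:100887542-101010961, plus strand of Mmul_10) was at 158.5, 201.9 and 183.9 CPM in the libraries of the intact cervical, thoracic and lumbar cord, and at 205.2, 229.7, 235.1 and 199.7 CPM at 7, 14 and 30 dpi and 6 mpi. NFKB1 lay above the intact range at 7, 14 and 30 dpi and inside it at 6 mpi, and the log2 ratios to lumbar were 0.16, 0.32, 0.35 and 0.12, the last of which became −0.09 with size factors in place of class totals. RELB (ENSMMUG00000014153) was at 22.9, 25.4 and 25.6 CPM in the intact libraries and at 69.3, 62.3, 74.3 and 42.3 CPM in the injured ones, so that the groups did not overlap. Its folds over intact lumbar were 2.70 (95% counting interval 2.32 to 3.17), 2.43 (2.09 to 2.84) and 2.90 (2.50 to 3.38) at 7, 14 and 30 dpi, and its log2 ratio at 6 mpi was 0.70. Of the 6 members tested, RELB and ICAM1 were above all 3 intact libraries in all 4 injured ones, a pattern shown by 15.2% of the genes tested. NFKB2 (chr9:102917067-102922388, plus strand), below the filter, was at 4.43, 5.14 and 5.00 CPM in intact cord and at 10.9, 7.52, 8.45 and 15.8 CPM after injury, also without overlap. Its 6 mpi level was 3.15-fold (2.14 to 4.73) that of intact lumbar.

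The upstream window of NFKBIA is shown because it holds letters of the NF-kB consensus motif. NFKBIA lies at chr7:97475994-97479221 on the minus strand of the Mmul_10 assembly by RefSeq. The window is the 250 bases before the annotated start (chr7:97479222-97479471), read 5′ to 3′ on the strand of the gene, and capitals mark each match to the motif on either strand.
NFKBIA: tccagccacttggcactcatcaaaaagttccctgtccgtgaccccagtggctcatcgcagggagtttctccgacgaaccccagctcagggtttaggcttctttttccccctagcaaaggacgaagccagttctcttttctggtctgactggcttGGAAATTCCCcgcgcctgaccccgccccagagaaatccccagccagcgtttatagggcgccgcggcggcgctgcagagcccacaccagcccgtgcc
The match begins 96 bases before the start. Of 20787 protein-coding genes, 4.93% have such a match in this window and 0.722% have 2 or more.

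Among the inhibitors, NFKBIA was at 120.5, 107.4 and 133.4 CPM in the intact libraries and at 108.5, 90.8, 75.8 and 150.7 CPM after injury. It was lowest at 30 dpi, at 0.568-fold (0.526 to 0.614) of intact lumbar, and above the intact range at 6 mpi, where its log2 ratio of 0.17 became −0.04 with size factors in place of class totals. TNFAIP3 was at 18.3, 22.8 and 15.4 CPM in intact cord and at 35.1, 28.9, 22.4 and 35.8 CPM after injury. The 30 dpi library fell inside the intact range, and the others were above it. The folds over intact lumbar were 2.28 (1.86 to 2.81) at 7 dpi and 2.33 (1.85 to 2.94) at 6 mpi. Intact lumbar was the lowest of the intact libraries, and both calls ended against any other intact reference (log2 ratios of 0.60 and 0.63 against thoracic cord) and after thinning to 1000 UMIs per nucleus (0.54 and 0.58).

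After each nucleus was thinned to 1000 UMIs, TNFAIP3 was detected more often where NFKBIA was. A TNFAIP3 UMI was found in 4.71, 3.85 and 3.11% of intact nuclei with an NFKBIA UMI and in 1.20, 0.947 and 1.95% of those without, in cervical, thoracic and lumbar cord. After injury the shares were 8.28, 8.91, 6.14 and 7.92% with and 2.32, 1.77, 1.62 and 1.90% without. The direction was shared by the 7 libraries. These are sparse counts from nuclei of mixed clusters, given as a description.

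The upstream windows of TNFAIP3 (gene at chr4:41481871-41497577, plus strand, window chr4:41481621-41481870) and BIRC3 (gene at chr14:95586217-95607579, plus strand, window chr14:95585967-95586216) also match the motif, and are shown with the matches in capitals.
TNFAIP3: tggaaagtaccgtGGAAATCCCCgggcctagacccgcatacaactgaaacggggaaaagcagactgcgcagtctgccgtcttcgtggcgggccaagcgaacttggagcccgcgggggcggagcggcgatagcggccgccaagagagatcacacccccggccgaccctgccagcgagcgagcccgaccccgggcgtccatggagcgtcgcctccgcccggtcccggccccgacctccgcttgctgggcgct
BIRC3: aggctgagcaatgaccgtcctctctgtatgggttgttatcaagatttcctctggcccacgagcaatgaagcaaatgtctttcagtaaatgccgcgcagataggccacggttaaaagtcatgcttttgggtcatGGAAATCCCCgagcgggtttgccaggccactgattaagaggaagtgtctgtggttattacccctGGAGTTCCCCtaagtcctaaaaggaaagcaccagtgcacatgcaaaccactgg
The match of TNFAIP3 begins 237 bases before its start, and those of BIRC3 begin 117 and 53 bases before. The same 250 bases of NFKB1, NFKB2, ICAM1 and SOD2 hold no exact match, which says only that these letters are not in that window. Near matches were not counted. The ICAM1 window holds ggaaattccg, which differs from the NFKBIA match in its last base only. The search therefore does not show that ICAM1 lacks an NF-kB site there. An uncharacterised gene on the opposite strand overlaps the start of TNFAIP3, and how its reads were kept apart is not given in the sources used here.

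Among the effectors, ICAM1 showed the largest folds of the 6 genes tested in microglia/macrophage-like nuclei. It was at 4.02, 2.93 and 4.46 CPM (29, 33 and 33 UMIs) in intact cord and at 15.9, 24.4, 21.8 and 22.6 CPM (251, 510, 552 and 142 UMIs) after injury. The intact libraries were all low and the injured ones all high, with no overlap. The folds over intact lumbar were 3.57 (2.48 to 5.31), 5.48 (3.86 to 8.05), 4.89 (3.44 to 7.18) and 5.07 (3.45 to 7.65). ICAM1 alone of the 6 was 2-fold higher at all 4 times, as were 2.09% of genes. In nuclei thinned to 1000 UMIs it was detected in 0.360, 0.391 and 0.523% of intact and 1.45, 2.01, 1.86 and 2.20% of injured microglia/macrophage-like nuclei, against at most 0.168% of neuron-like nuclei in any library. Without thinning the shares were 1.4997, 1.17 and 1.28% in intact cervical, thoracic and lumbar nuclei and 4.96 to 8.45% in injured nuclei, at median depths of 2396 to 5809 UMIs, and neuron-like nuclei had a median of 21617 to 39126 UMIs. In the injured libraries, 5.97, 5.69, 6.41 and 4.65% of thinned nuclei with a RELB UMI had an ICAM1 UMI (12, 14, 18 and 4 nuclei), against 1.18, 1.80, 1.51 and 2.10% of those without. In the intact libraries 0, 1 and 1 nuclei had both, too few to compare.

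SOD2 was at 24.1, 19.6 and 23.1 CPM (174, 221 and 171 UMIs) in the intact libraries and at 19.7, 23.1, 54.0 and 75.7 CPM (310, 483, 1369 and 476 UMIs) at 7, 14 and 30 dpi and 6 mpi. The first 2 times lay inside the intact range, and the later ones were 2.34-fold (1.99 to 2.76) and 3.28-fold (2.75 to 3.93) above intact lumbar. The thinned share of nuclei with a SOD2 UMI was 2.03 to 2.40% in intact cord, 1.79 and 1.77% at 7 and 14 dpi, and 4.14 and 4.40% later. BIRC3, below the filter, was at 1.80, 5.85 and 2.43 CPM in intact cord and at 1.46, 2.97, 5.33 and 10.0 CPM after injury, so that only 6 mpi lay above the intact range.

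Within the microglia/macrophage-like class, different clusters held the intact and the injured nuclei, and most were filled largely by 1 library. The cluster led by MRC1 and CX3CR1 (6184 nuclei) was mainly intact, one led by TNF, FOSB and FOS (4533) came mainly from 14 dpi, one led by CD74 and APOC1 (4080) from 7 dpi and 6 mpi, and one led by CCL2 and TNF (2268) from 30 dpi. In addition, 2 clusters were led by CHIT1 and by GPNMB, which encodes a lysosomal membrane glycoprotein: the one with TGM2 among its leading genes (1689 nuclei) came mainly from 30 dpi and the one with DNASE2B (1216) from 6 mpi. A cluster and a library can therefore not be told apart in most of these values.

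SOD2 was concentrated in those 2 clusters. Their scores for the microglia/macrophage markers, on a scale up to 1, were 0.260 and 0.194, against 0.659 in the MRC1 cluster. Their scores for the next class, 0.160 (endothelial) and 0.169 (astrocyte), exceeded 0.5 of these, so they stayed named only through the floor of 0.3 for a second score, which was set after the clusters were seen. SOD2 was at 113 CPM in the TGM2 cluster and 92.5 CPM in the DNASE2B cluster, against 14.0 to 19.4 CPM in the MRC1, TNF, CD74, CCL2 and MKI67 clusters. The 2 clusters made up 33.2% of the class at 30 dpi and 53.4% at 6 mpi, against 0.180 to 0.939% in intact cord, and held 1097 of 1369 SOD2 UMIs (80.1%) and 421 of 476 (88.4%). Outside them SOD2 was at 17.9, 18.6, 17.7 and 19.9 CPM after injury and at 24.2, 19.2 and 23.0 CPM in intact cord. Without them the log2 ratios of SOD2 became −0.36 at 30 dpi and −0.20 at 6 mpi, so both calls ended. The negative sign is not firm, since intact lumbar itself was at 17.2 CPM without a small cluster led by FCRL1 and FN1. Within the 2 clusters SOD2 was at 157 CPM (108 to 222, 39 nuclei) at 7 dpi, 73.6 CPM at 14 dpi, 110 CPM at 30 dpi and 120 CPM at 6 mpi, with no order in time.

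**Figure D2:**
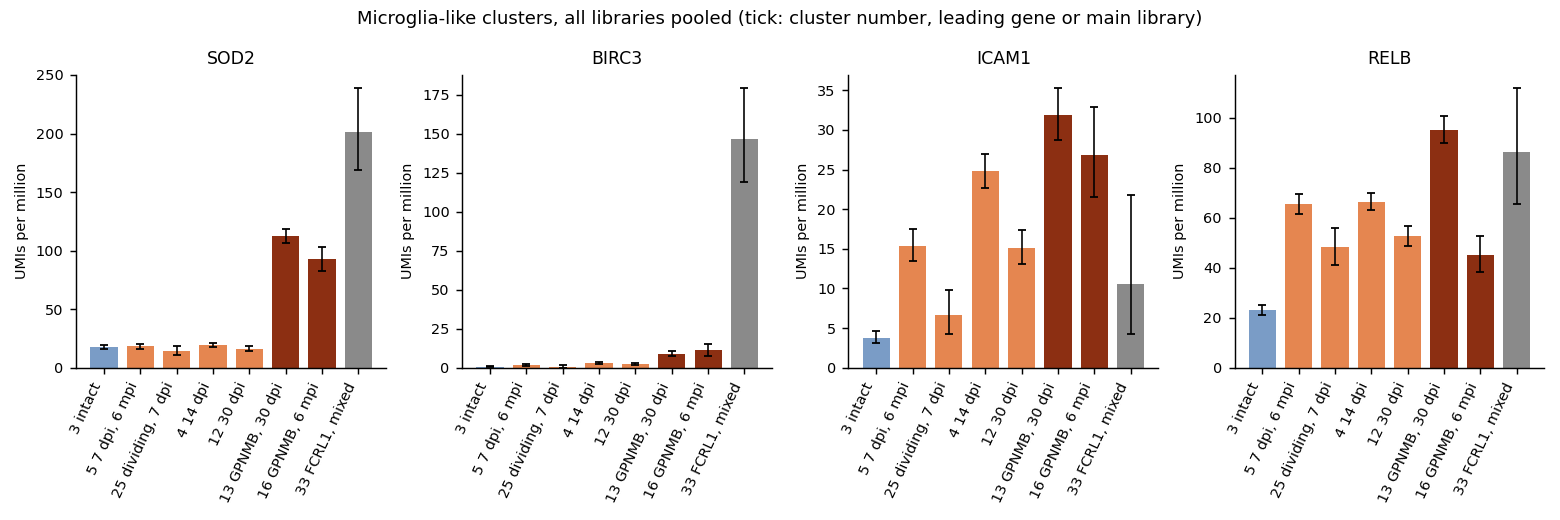
Level of SOD2, BIRC3, ICAM1 and RELB (CPM, linear axes from 0) in each microglia/macrophage-like cluster over all libraries, with exact 95% Poisson intervals as whiskers; cluster 3 is the MRC1 cluster, 4 the TNF, 5 the CD74, 12 the CCL2, 13 the TGM2, 16 the DNASE2B, 25 the dividing MKI67 and 33 the FCRL1 cluster. SOD2 reaches 113 and 92.5 CPM in clusters 13 and 16 and 201 CPM in cluster 33, whereas ICAM1 is at 15.1 CPM or more in 5 clusters filled by injured libraries.

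ICAM1 was at 3.79 CPM in the MRC1 cluster, at 24.8, 15.4, 15.1, 31.9 and 26.8 CPM in the TNF, CD74, CCL2, TGM2 and DNASE2B clusters, and at 6.61 CPM in the MKI67 cluster of dividing nuclei, mainly from 7 dpi. Outside the 2 GPNMB and CHIT1 clusters it was at 15.6, 22.9, 16.7 and 13.7 CPM in the injured libraries against 2.96 to 4.47 CPM in the intact ones. The groups did not overlap there either, but this subset was chosen after the data were seen. With all clusters kept, 15.2% of the genes tested stood above all 3 intact libraries in all 4 injured ones. The share of all genes without the 2 clusters is not given here, and most of the clusters left were filled by intact or by injured libraries. RELB ranged from 45.1 to 95.2 CPM in the clusters filled by injured libraries and was at 23.1 CPM in the MRC1 cluster. NFKBIA was lowest in the TGM2 cluster, at 59.2 CPM, and highest in the DNASE2B cluster, at 159 CPM. BIRC3 reached 9.06 and 11.1 CPM in the TGM2 and DNASE2B clusters, which held 63.0% of its UMIs at 30 dpi and 93.7% (59 of 63) at 6 mpi, and outside them it was at 1.45 CPM at 6 mpi.

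A small cluster of 173 nuclei held part of the intact signal of 2 members. Its leading genes were FCRL1, FN1, FCGR3, KMO, CFD, S100A4, IGHM, FGR, MS4A1 and PILRA. MS4A1 encodes a B cell surface protein, whereas the paper lists FN1 for monocytes. Which cells make up this cluster was not tested. In this cluster SOD2 was at 201 CPM and BIRC3 at 147 CPM. With 15, 34 and 21 nuclei in the cervical, thoracic and lumbar libraries of intact cord, it held 26.4, 9.05 and 26.3% of their SOD2 UMIs. Of the BIRC3 UMIs it held 53.8, 89.4 and 72.2% (7 of 13, 59 of 66 and 13 of 18). Without it BIRC3 was at 0.841, 0.628 and 0.682 CPM in intact cord and at 1.47, 2.89, 4.71 and 10.0 CPM after injury, and SOD2 was at 17.9, 18.0 and 17.2 CPM against 19.4, 23.1, 53.8 and 75.8 CPM. Each injured value then lay above each intact one for both genes, but the counting intervals overlapped those of intact cord at 7 dpi for both and at 14 dpi for SOD2, which at 7 dpi had 17.3 to 21.7 CPM against 15.6 to 20.7 CPM in thoracic cord. This was found after the values were seen. With the cluster kept in, 15.2% of the genes tested stood above all 3 intact libraries in all 4 injured ones. The share of all genes without the cluster was not computed.

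Other values of the microglia/macrophage-like class also changed, not all at the times of the members, and their part in the microglial results was not tested. The summed level of the 8 microglia/macrophage markers in this class was 7475 to 7856 CPM in intact cord and 9026, 8474, 6919 and 4949 CPM after injury. The perivascular macrophage list (MRC1, CD163, LYVE1 and F13A1) summed to 939 to 1598 CPM in intact cord and 203 to 591 CPM after injury. MRC1 and CD163 are also leading genes of the mainly intact cluster of 6184 nuclei, so this sum is not particular to perivascular macrophages. The monocyte list summed to 12.7 to 21.7 CPM in intact cord and to 132, 17.2, 115 and 9.87 CPM after injury. The summed level of immediate early and heat shock genes was 303, 515 and 420 CPM in intact cord and 258, 1366, 1028 and 1322 CPM after injury, and of the 8 such genes tested, 0 were 2-fold higher and 4 were 2-fold lower at 7 dpi (FOSB, ATF3, NR4A1 and HSPH1). At 14 and 30 dpi and 6 mpi, 4, 5 and 5 of the 8 were 2-fold higher and 0 were lower. Over all genes 4.49% were lower at 7 dpi, and 5.09, 7.07 and 10.4% were higher at the later times. The intact segments also differed from lumbar in these genes, with FOSB, ATF3 and NR4A1 2-fold lower in cervical, and FOS higher and NR4A1 lower in thoracic cord.

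The wider pathway list, 81 ligands, receptors, adaptors, kinases, subunits, inhibitors and other targets without the 8 genes, gave 55 genes tested in microglia/macrophage-like nuclei. At 7 dpi 1 was 2-fold higher and 10 were lower, at 14 dpi 10 and 3, at 30 dpi 11 and 1, and at 6 mpi 7 and 6, where 6.77, 5.09, 7.07 and 10.4% of all genes tested were higher and 4.49, 3.29, 4.71 and 4.41% were lower. The 7 higher at 6 mpi and the 3 lower at 14 dpi were thus close to the share over all genes. Their median log2 ratio was −0.12, −0.03, 0.08 and 0.10, against 0.04, −0.07, −0.04 and 0.15 over all genes. The 14 other targets accounted for most of the calls, with 6 lower at 7 dpi, 6 higher and 1 lower at 14 dpi, and 7 and 5 higher at 30 dpi and 6 mpi. Of the 7 kinases 0 were higher at any time, and REL and RELA were not 2-fold higher at any time.

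The named targets were highest at different times. The prostaglandin synthase gene PTGS2 was at 26.1 to 42.3 CPM in intact cord and at 0.951, 45.5, 79.5 and 43.9 CPM after injury, and the chemokine gene CXCL8 was at 59.3 to 90.7 CPM against 4.12, 26.1, 113 and 67.8 CPM. Both were thus lowest at 7 dpi. The survival gene BCL2A1 went from 1.77 to 3.60 CPM in intact cord to 3.62, 30.4, 77.3 and 83.4 CPM, and PLAU, the urokinase gene, from 2.35 to 3.51 CPM to 6.03, 15.8, 33.4 and 84.2 CPM. These were highest at 6 mpi, as SOD2 was, and both passed the filter through their injured levels alone and are among the targets counted higher from 14 dpi on. The chemokine gene CCL3 was at 92.3 to 139 CPM in intact cord and at 31.4, 312, 453 and 850 CPM after injury. Within the class, BCL2A1 was a leading gene of the TGM2 cluster and PLAU of the DNASE2B cluster. CCL3 was a leading gene of the DNASE2B and CCL2 clusters. Levels of these genes outside the TGM2 and DNASE2B clusters are not given here.

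Of the cytokine ligands, TNF was at 72.2, 28.5 and 40.2 CPM in the intact libraries and at 56.3, 280, 173 and 18.5 CPM after injury, highest at 14 dpi. IL1B was at 204, 112 and 227 CPM in intact cord and at 36.8, 92.4, 130 and 49.0 CPM after injury. The target CCL2, a monocyte chemokine, was at 14.2 to 21.5 CPM and then at 20.1, 101, 128 and 27.7 CPM.

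Beside SOD2, the cytosolic enzyme gene SOD1 had log2 ratios of −0.44, −0.37, −0.14 and 0.46 in microglia/macrophage-like nuclei, none past 2-fold. Of 11 antioxidant genes tested, 2, 1, 3 and 4 were 2-fold higher in order of time and 0 were lower, against the same 6.77, 5.09, 7.07 and 10.4% of all genes higher, so the single call at 14 dpi is near that share. GPX1, a glutathione peroxidase, had log2 ratios of 1.42, 1.58, 1.99 and 3.08 from an intact lumbar level of 2.83 CPM. It passed the filter through its injured levels alone (2.22 to 3.46 CPM in intact cord), and it is in each of these counts and the single call at 14 dpi. GPX4 reached 57.9 CPM at 6 mpi (log2 ratio 2.37), and the peroxiredoxin gene PRDX1 had ratios of 1.30 and 1.24 and TXNRD2, mitochondrial thioredoxin reductase, of 1.01 and 1.11 at 30 dpi and 6 mpi. HMOX1, which degrades heme, was at 27.3 CPM at 7 dpi (1.44). CAT, PRDX3, PRDX5, TXN2 and GCLM were not 2-fold higher in any injured library.

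In neuron-like nuclei SOD2 was lower in each injured library than in each intact one. It was at 58.0, 46.3 and 55.2 CPM (2929, 1348 and 5170 UMIs) in the libraries of the intact cervical, thoracic and lumbar cord, and at 18.1, 20.8, 20.8 and 19.7 CPM (677, 1277, 1247 and 460 UMIs) at 7, 14 and 30 dpi and 6 mpi. The intact libraries were all high and the injured ones all low and close together. The intact lumbar level was 3.05-fold (2.81 to 3.30), 2.65-fold (2.50 to 2.82), 2.65-fold (2.49 to 2.82) and 2.79-fold (2.54 to 3.08) that of the 4 injured libraries. In these comparisons 0.401, 0.444, 0.466 and 0.531% of genes were 2-fold lower. SOD2 was 1 of 7 of the 9224 genes tested (0.0759%) that were 2-fold lower at all 4 times, and 12.1% of genes were below the 3 intact libraries in all 4 injured ones. After thinning to 1000 UMIs per nucleus the 14 dpi ratio was −0.94, so the call at that time ended. The share of nuclei with a SOD2 UMI was 59.0 to 64.8% in intact and 33.8 to 50.5% in injured neuron-like nuclei, and 3.54 to 5.41% and 1.502 to 2.76% after thinning.

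**Figure D3:**
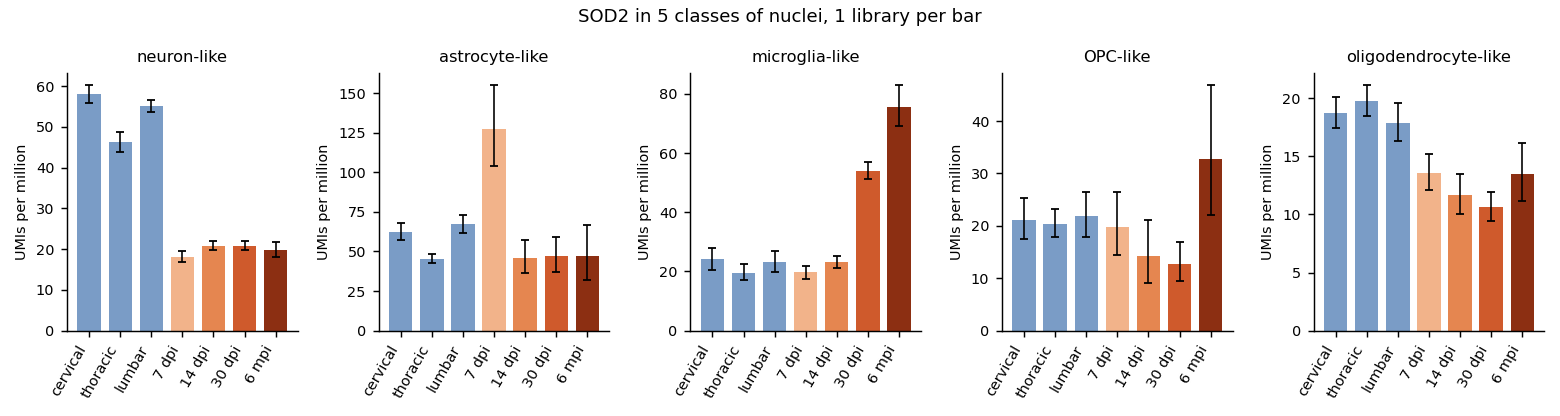
Level of SOD2 (CPM, each panel on its own linear axis from 0) in 5 classes, with 1 bar per intact (blue) or injured (orange to brown) library and exact 95% Poisson intervals as whiskers. In neuron-like nuclei the 3 intact libraries lie at 46.3 CPM or above and the 4 injured ones at 20.8 CPM or below, while in microglia/macrophage-like nuclei the 2 latest libraries are the highest.

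The SOD2 gene (ENSMMUG00000050418) lies at chr4:10902818-10916241 on the plus strand of Mmul_10 with up to 6 exons. Its upstream window (chr4:10902568-10902817) and that of ICAM1 (chr19:10024700-10024949, gene at chr19:10024950-10040084, plus strand) are shown beside the 3 windows above that match the motif. Both are in lower case throughout because neither holds an exact match.
SOD2: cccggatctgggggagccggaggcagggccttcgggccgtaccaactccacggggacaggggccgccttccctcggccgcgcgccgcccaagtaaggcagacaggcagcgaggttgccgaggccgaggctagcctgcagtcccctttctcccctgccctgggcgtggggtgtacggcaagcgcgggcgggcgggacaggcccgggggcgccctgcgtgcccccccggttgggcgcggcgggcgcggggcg
ICAM1: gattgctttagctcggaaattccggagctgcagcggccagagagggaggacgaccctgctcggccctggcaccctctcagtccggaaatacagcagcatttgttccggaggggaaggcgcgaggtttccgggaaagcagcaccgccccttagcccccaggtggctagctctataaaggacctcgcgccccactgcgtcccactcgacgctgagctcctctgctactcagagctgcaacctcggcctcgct

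The lower SOD2 level was seen in each neuron-like cluster that could be compared. In 11 of 11 neuron-like clusters with at least 50 nuclei in an intact and an injured library, every injured value lay below every intact value, and 7 of these clusters had values in all 7 libraries. In the largest of them the intact libraries were at 59.8 to 71.3 CPM and the injured ones at 19.9 to 24.1 CPM. The narrowest gap among clusters with all 7 libraries was that of 20.6 to 38.3 CPM against 6.97 to 18.3 CPM, where the counting intervals overlapped. Of the 11, clusters 29 and 31 had only 1 intact and 1 injured library. Neuron-like clusters of 200, 91 and 20 nuclei had too few per library and were not compared. The one of 91 nuclei has CHAT and SLC5A7 among its leading genes. The clusters compared come from the same 7 libraries, so they are not independent of each other.

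**Figure D4:**
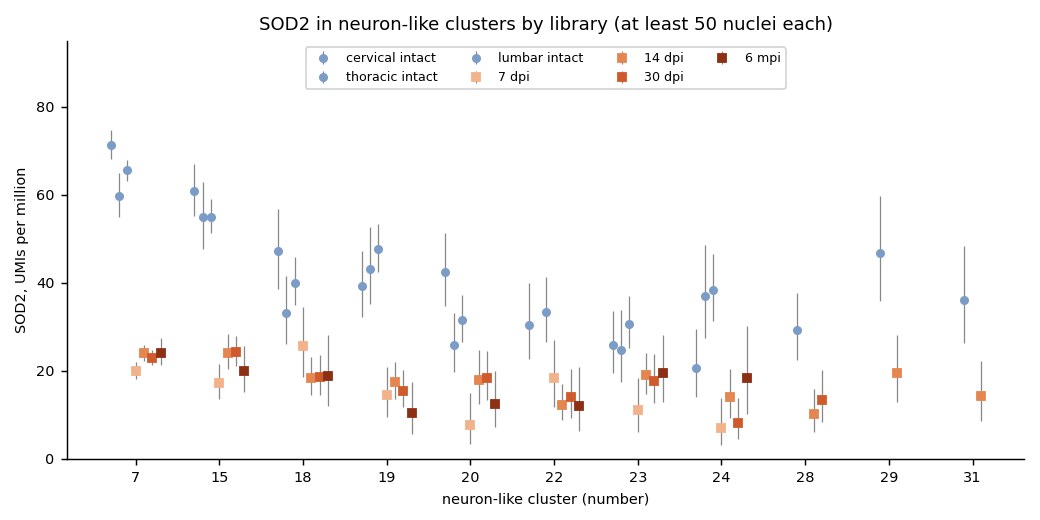
Level of SOD2 (CPM, linear axis from 0) in each of 11 neuron-like clusters (numbers on the x axis), 1 point per library with at least 50 nuclei, circles for intact and squares for injured cord, with exact 95% Poisson intervals as whiskers. In each of the 11 clusters the injured points lie below the intact ones, although in some, such as cluster 24, the intervals overlap.

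RNA from other nuclei can enter a droplet, so the neuronal SOD2 level was set beside the microglial one. In neuron-like nuclei SOD2 was at 241, 236 and 239% of its microglia/macrophage-like level in the intact libraries and at 92.1, 89.9, 38.6 and 26.1% after injury. The microglia/macrophage markers had a median of 0.542 to 1.60% of their microglial level there. This comparison covers microglial RNA only. In intact cord SOD2 in astrocyte-like nuclei was at 259, 232 and 291% of the microglial level. These nuclei made up 9.02 to 15.3% of intact and 1.08 to 2.72% of injured libraries. The 6 astrocyte markers summed to 157 to 175 CPM in intact and 136 to 178 CPM in injured neuron-like nuclei. The part of astrocyte RNA in the neuronal SOD2 level was not tested. Of the other members in neuron-like nuclei, NFKB1 was at 113.7 to 123.5 CPM in the 7 libraries, TNFAIP3 at 1.34 to 2.06 CPM, BIRC3 at 1.17 to 2.62 CPM and RELB at 7.64 to 9.51 CPM in intact and 8.54 to 11.8 CPM in injured cord. Of the antioxidant genes tested in neuron-like nuclei (SOD1, PRDX3, PRDX5, TXN2, TXNRD2 and GCLM), 0 were past 2-fold at any of the 4 times. Of all genes tested there, 0.379 to 1.04% were 2-fold higher and 0.401 to 0.531% lower, so this count is near that share. SOD1 was closest, with log2 ratios of −0.72 and −0.79 at 7 and 14 dpi but 0.04 and −0.25 later. The 6 neuron markers summed to 3212 to 3375 CPM in intact and 2704 to 3036 CPM in injured neuron-like nuclei. The chaperone gene HSP90AA1 was lower in each injured library (38.5 to 55.1 CPM, against 65.1 and 71.6 CPM in thoracic and cervical cord). It belongs to the immediate early and heat shock list, which did not all go that way. Below the filter, JUN was at 1.34 to 1.79 CPM in intact cord and at 2.54, 5.80, 6.13 and 4.81 CPM after injury. FOS, also below the filter, was above its intact range at 14 and 30 dpi and 6 mpi. The part of these values in those of SOD2 was not tested.

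**Figure D5:**
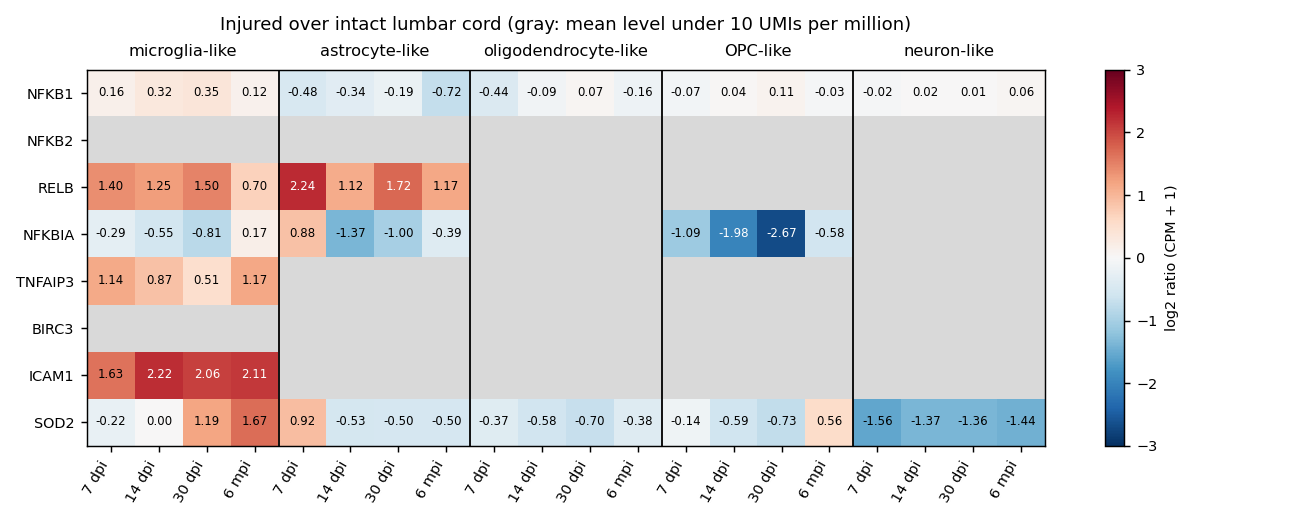
Log2 ratio of each of the 8 genes in the 4 injured libraries to the intact lumbar library, log2((CPM + 1)/(CPM + 1)), in 5 classes, with colour and printed value giving the ratio and gray where the mean level is under 10 CPM. SOD2 is negative in the 4 columns of the neuron block (−1.56 to −1.36) and positive in the last 2 columns of the microglia/macrophage block (1.19 and 1.67).

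The glial classes of neural origin differed from each other. In oligodendrocyte-like nuclei, SOD2 was at 18.7, 19.8 and 17.9 CPM in intact cord and at 13.6, 11.7, 10.7 and 13.5 CPM after injury, below the intact range at all 4 times as were 11.9% of genes, with log2 ratios of −0.37 to −0.70. Here too the groups lay in different clusters, the intact nuclei mainly in 3 clusters at 17.9, 19.8 and 18.1 CPM and the injured ones mainly in 2 at 12.9 and 10.9 CPM, so cluster and group cannot be told apart. In nuclei of oligodendrocyte precursor-like cells (OPC), SOD2 was at 20.4 to 21.9 CPM in intact cord and at 19.8, 14.2, 12.8 and 32.8 CPM after injury. In astrocyte-like nuclei, it was at 62.5, 45.4 and 67.1 CPM and then at 127.5, 46.1, 47.1 and 47.0 CPM, so that 7 dpi alone lay above the intact range.

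NFKBIA was lower in OPC-like nuclei at the 3 earlier times after injury. It was at 25.1, 20.4 and 33.1 CPM in the intact libraries and at 15.1, 7.67, 4.34 and 21.9 CPM after injury (35, 13, 16 and 20 UMIs). The first 3 injured libraries lay below the intact range and 6 mpi inside it. The intact lumbar level was 2.20-fold (1.52 to 3.27), 4.32-fold (2.45 to 8.29) and 7.63-fold (4.55 to 13.7) that at 7, 14 and 30 dpi, where 1.55, 2.21 and 1.53% of genes were 2-fold lower. At 7 dpi the call ended against any other intact reference, with a log2 ratio of −0.41 against thoracic cord. In oligodendrocyte-like nuclei, below the filter, NFKBIA was at 9.26 to 13.3 CPM in intact cord and at 8.64, 4.19, 3.52 and 15.6 CPM after injury. In astrocyte-like nuclei it was at 70.2, 36.8 and 73.8 CPM and then at 136, 28.0, 36.5 and 56.1 CPM, 2-fold lower at 14 dpi only, as were 1.92% of genes. That call ended against intact thoracic cord (log2 ratio −0.38) and after thinning (−0.69). Its lowest injured value in microglia/macrophage-, oligodendrocyte- and OPC-like nuclei was thus that of 30 dpi.

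In astrocyte-like nuclei RELB was at 6.34, 5.26 and 4.84 CPM in intact cord (54, 98 and 38 UMIs) and at 26.5, 11.7, 18.2 and 12.1 CPM after injury (21, 20, 29 and 8 UMIs), without overlap. Of the genes tested, 9.66% were likewise above the 3 intact libraries in all 4 injured ones. The log2 ratios of RELB were 2.24, 1.12, 1.72 and 1.17, where 11.7, 3.71, 6.49 and 10.5% of genes were 2-fold higher and 1.06% at all 4 times. The calls at 14 dpi and 6 mpi ended against intact cervical cord (0.79 and 0.84), that at 14 dpi also against the mean of the intact libraries (0.97), and that at 6 mpi also with size factors (0.98) and after thinning (0.42). RELB passed the filter through the injured libraries alone, and those held 98, 251, 147 and 117 astrocyte-like nuclei against 909 to 1688 in the intact ones. The summed level of the 8 microglia/macrophage markers in the same nuclei was 28.5, 51.7 and 19.9 CPM in intact cord and 218, 95.1, 223 and 97.1 CPM after injury, and its part in the RELB values was not tested. NFKB1 in these nuclei was at 100.9, 92.5 and 90.4 CPM in intact cord and at 64.4, 71.2, 79.2 and 54.6 CPM after injury, below the intact range at all 4 times, as were 7.19% of genes. After thinning to 1000 UMIs, a RELB UMI was left in 6 of 977 intact lumbar nuclei and in 0 of 98 at 7 dpi, and the 7 dpi ratio of −2.84 then depends on the pseudocount.

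Smaller groups of nuclei were summed over libraries. In T cell-like nuclei (162 intact, 264 injured) BIRC3 was at 48.1 CPM in intact and 15.7 CPM in injured cord (28 and 14 UMIs), but at 56.7 CPM at 7 dpi, and 125 of the 162 intact nuclei came from thoracic cord. The TNFAIP3 intervals overlapped (34.8 to 73.6 CPM in intact and 19.1 to 42.9 CPM in injured cord). In ependymal-like nuclei (491 and 132) SOD2 was at 44.0 and 22.7 CPM (118 and 19 UMIs). At 7 dpi it was at 42.0 CPM from 7 UMIs, inside the intact range of 35.6 to 48.6 CPM, and 6 mpi held only 6 nuclei. ICAM1 had its highest level, 59.9 CPM (43.5 to 80.4), in a cluster of 149 nuclei led by EMCN, CLDN5 and FLT1. That cluster scored 0.848 for endothelial markers but stayed unnamed because pericyte/mural markers scored 0.626. It held 36, 39 and 40 nuclei of intact cervical, thoracic and lumbar cord and 8, 8, 13 and 5 of the injured libraries in order of time. In it NFKBIA was at 163 CPM, NFKB1 at 131 CPM and SOD2 at 47.6 CPM.

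The pattern of each member was compared with 9325 genes over 35 points (7 libraries by 5 classes), which share libraries and depth. On levels, the closest were JAK2 to NFKB1 (Pearson r = 0.948), BRD2 to NFKB2 (0.923), SH3GL1 to RELB (0.940), RREB1 to NFKBIA (0.923), NEK6 to TNFAIP3 (0.937), LYST to BIRC3 (0.895), IL21R to ICAM1 (0.944) and INTU to SOD2 (0.805). These follow mainly which class expresses a gene. After the mean of each class was subtracted, the closest to SOD2 were CALU (0.655), RGCC (0.654) and RUSC2 (0.641), to RELB PLEKHO2 (0.858) and to ICAM1 IHO1 (0.832). Among the 28 pairs of members, r then ranged from −0.21 for NFKBIA and NFKB1 to 0.53 for SOD2 and BIRC3.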

How the data were processed

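Single-nucleus RNA-seq was analysed from the deposited count matrices, 1 per library, which hold UMI counts per gene and barcode. Per the labels the authors made 10x Genomics v3 nuclei libraries, and their processing notes name Cell Ranger 6.0.0 and Mmul_10. The files begin at 500 UMIs per barcode, and the authors' doublet calls were not used here. By the limits the study states, nuclei with over 500 genes and over 1000 UMIs, under 10% mitochondrial and under 5% haemoglobin UMIs were kept, and the highest 5% of Scrublet scores per library were removed as doublets. With scanpy 1.11.5 the UMIs of each nucleus were scaled to 10000 and log-transformed, and 2000 variable genes, 30 principal components, 20 neighbours and Leiden clustering (leidenalg 0.10.2, resolution 1, seed 1) were used without integration of libraries.

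A cluster took the name of the class with the highest marker score if at least 3 of its markers were detected in 10% of its nuclei. It stayed unnamed if another class held more of its 10 leading genes, if its depth relative to its libraries was under 0.4 with no own marker leading, or if a second class scored at least 0.3 and over 0.5 of the best. The 0.3 floor and the 0.4 limit were set after the clusters were seen. Unnamed clusters held 0.702 to 3.39% of the nuclei of a library.

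UMIs were summed per class and library. Levels have exact Poisson intervals, folds exact conditional binomial intervals and shares Clopper-Pearson intervals at 95% (scipy 1.17.1), which cover counting error only, and the pseudocount was 1 CPM. The fold calls were checked on simulated counts with counting error only, so variation between libraries or animals was not covered. The naming check rescored profiles simulated from already named classes with the same markers. It does not bear on clusters with low or mixed scores. The depth was 45079131 to 150987900 UMIs per library. Named genes are the 8 members, the pathway genes with the largest log2 ratios that were tested (0 were past 2-fold in the same direction at all 4 times, so the 8 with the largest maximum are named), the tested antioxidant genes, the genes closest to each member and class markers. The members and all lists were chosen with earlier results of these data known. Alternatives covered the reference library, scaling, thinning to 1000 UMIs, doublets, resolution, naming of single nuclei, filters, fold and pseudocount. Promoter windows are 250 bases before gene starts of the RefSeq annotation of Mmul_10, read from the genome. The NF-kB consensus motif GGGRNWYYCC was searched by exact letters on both strands. In it R is A or G, W is A or T, Y is C or T and N is any base. The window of RELB is not reported here.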

Additional observations from a re-analysis of the deposited data

Results flagged for a closer look

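SOD2 differed in opposite directions between 2 classes at the later times. At 30 dpi its log2 ratio to intact lumbar was 1.19 in microglia/macrophage-like nuclei and −1.36 in neuron-like nuclei, and at 6 mpi it was 1.67 and −1.44. With 1 library per group the difference between the classes was not tested. In the 7 neuron-like clusters with at least 50 nuclei in every library, the injured values lay below the 3 intact ones, and the microglial values rested on the 2 clusters led by GPNMB and CHIT1, which held 80.1 and 88.4% of the microglial SOD2 UMIs at these times.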

How the results depend on the processing

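No paired analysis was possible because each group is a single library. There were 23 values past 2-fold, and of their 260 values under alternatives 26 came under 2-fold in the same direction and 6 changed sign. In microglia/macrophage-like nuclei SOD2 changed sign without the 2 clusters led by GPNMB and CHIT1 (log2 ratio −0.36 at 30 dpi and −0.20 at 6 mpi), an alternative chosen after seeing the data. The sign is not firm, since 26.3% of the intact lumbar SOD2 UMIs lay in the cluster led by FCRL1 and FN1. Leaving out nuclei with any UMI of a neuron, oligodendrocyte or astrocyte marker kept 7 to 69 nuclei per library (0.336 to 2.46%). With so few UMIs, TNFAIP3 changed to −1.20 at 7 dpi and −2.15 at 6 mpi and SOD2 to −4.93 at 30 dpi. The members called higher and lower, of 7 tested, then numbered 1 and 3 in intact cervical and 3 and 2 in intact thoracic cord, and in order of time 3, 2, 2 and 5 were called higher and 1, 1, 4 and 1 lower. Of all genes 19.6 to 26.2% were then called higher and 15.8 to 34.2% lower, the intact segments included. RELB in astrocyte-like nuclei at 7 dpi changed to −2.84 when thinned to 1000 UMIs, which left it 0 UMIs, so this value is set by the pseudocount.

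A filter at 50 CPM left 0 members called higher at any of the 4 times, since only NFKB1 and NFKBIA pass it. Of the 3909 genes tested there, 5.32, 5.17, 6.73 and 7.29% were higher in order of time, so 0 of 2 is near that share. No filter gave 5 of 8 at 6 mpi, against 8.13% of all genes. At a fold of 1.5, 3, 3, 3 and 4 members were higher in order of time, against 15.7, 10.6, 12.8 and 22.1% of genes, and 1 was lower at 30 dpi, against 11.9%. SOD2 in neuron-like nuclei kept its direction throughout, but its 14 dpi call ended after thinning. With intact thoracic as the reference its ratios were −1.31, −1.12, −1.12 and −1.19, with the mean of the intact libraries −1.31 at 14 and 30 dpi, and thinned −1.73, −0.94, −1.55 and −1.18. Class totals put the median of all genes in microglia/macrophage-like nuclei at 0.15 at 6 mpi, and size factors put it at −0.06. NFKBIA and NFKB1 at 6 mpi turned from 0.17 and 0.12 to −0.04 and −0.09 with size factors. The single library per group and the low counts of ICAM1, NFKB2 and BIRC3 limit these values.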
